A study of Homo sapiens with 6 samples.

Results

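The genes described here are the receptor tyrosine kinases ALK and LTK and the secreted growth factors PTN (pleiotrophin) and MDK (midkine), which have been proposed as ALK ligands. They were chosen by symbol, as a receptor family with its ligands, after ALK had been seen to differ strongly between the groups. Of the 4 listed genes, 3 (ALK, LTK and MDK) were measured, among 22258 gene symbols in all, and PTN was not analysed here. The 3 ALDH1B1 KD samples are SW480 cells, a human colon adenocarcinoma line, with a knockdown of the mitochondrial aldehyde dehydrogenase ALDH1B1, and the 3 control samples are SW480 cells whose labels give the genotype as WT and the code SCR. None of the 6 samples received a further treatment, and all come from a single cell line. How the knockdown was made, and whether the replicates, numbered 4 to 6 in each group, are separate cultures, is not given in the sources used here. P-values therefore reflect how far these 6 samples scatter, a scatter that may be technical.

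ALK and LTK are close relatives within the insulin receptor superfamily. A ligand brings receptor molecules together, the kinase domains phosphorylate each other, and adaptors such as SHC, FRS2 and the IRS proteins pass the signal to the RAS-MAPK, PI3K and STAT pathways. The small secreted proteins ALKAL1 and ALKAL2 activate both receptors, while PTN and MDK bind heparan and chondroitin sulfate chains, syndecans and the phosphatase PTPRZ1. ALK is mainly a gene of the developing nervous system and is little used in adult gut epithelium. As an oncogene it is known from fusions in lymphoma and lung cancer and from point mutations in neuroblastoma.

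ALK has more than 1 annotated start, and a gene-level value adds them together. The 250 bases before each RefSeq start of ALK, and before that of LTK for comparison, are shown on GRCh38.p14, each on the minus strand and 5′ to 3′. Capitals mark matches, on either strand, to any of 4 motifs. GGGCGG is the GC box bound by SP factors, and TATAAA is the TATA box near which transcription can start. CACGTG is an E-box, bound by basic helix-loop-helix factors, and TGANTCA is the site of the AP-1 factors. No motif match overlaps another in these windows.
ALK, full-length start, chr2:29921587-29921836: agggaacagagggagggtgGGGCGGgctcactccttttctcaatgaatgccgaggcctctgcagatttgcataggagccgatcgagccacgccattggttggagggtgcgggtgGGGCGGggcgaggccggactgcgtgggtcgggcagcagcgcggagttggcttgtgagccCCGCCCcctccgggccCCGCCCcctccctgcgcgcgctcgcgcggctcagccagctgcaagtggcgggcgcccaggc
ALK, internal start, chr2:29223824-29224073: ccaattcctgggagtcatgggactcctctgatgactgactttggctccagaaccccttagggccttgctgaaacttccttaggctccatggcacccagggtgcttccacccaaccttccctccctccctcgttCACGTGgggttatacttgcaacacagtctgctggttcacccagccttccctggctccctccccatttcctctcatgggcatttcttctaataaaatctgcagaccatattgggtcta
LTK, start, chr15:41513828-41514077: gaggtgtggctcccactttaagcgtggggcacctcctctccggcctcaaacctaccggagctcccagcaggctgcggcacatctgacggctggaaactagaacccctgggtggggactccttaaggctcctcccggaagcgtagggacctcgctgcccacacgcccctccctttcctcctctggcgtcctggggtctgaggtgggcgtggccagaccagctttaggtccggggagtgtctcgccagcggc

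The full-length ALK start lies in GC-rich sequence, with 71.6% G and C, 24 CpG dinucleotides and 4 GC boxes. The internal start lies 698 kb downstream, in intron 19 of the 29-exon transcript ALK-201 of GENCODE 29. It has 53.6% G and C, 2 CpG dinucleotides and 1 E-box. Transcripts that begin in this intron, described in melanoma, encode the kinase domain without the extracellular and membrane-spanning parts. The LTK window has 66.0% G and C and 14 CpG dinucleotides, and holds none of the 4 motifs. Over all 35116 RefSeq windows of this length the median was 58.0% G and C and 11 CpG dinucleotides. A GC box was found in 42.6% of them, a TATA box in 10.7%, an E-box in 6.34% and an AP-1 site in 6.57%. The deposited values are per gene, so they do not tell which ALK start was used.

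Levels are in RPM, reads scaled by the authors to a common sequencing depth, and are not scaled by gene length, so they are compared between groups and not between genes. The depth, as read from the steps between low values, was 20360000 to 26160000 reads in the knockdown and 21090000 to 28590000 reads in the control samples. The floor used below is 3 reads, or 0.105 to 0.147 RPM depending on the sample. limma was run, knockdown over control, on the genes that averaged 0.688 RPM or more, and a gene is said to have risen or fallen only at a Benjamini-Hochberg adjusted p under 0.05 over all 15496 genes tested. By this rule 41.8% of all tested genes were called, 22.6% as risen and 19.2% as fallen, and the 2 groups of samples did not overlap for 51.0%, with the knockdown higher for 26.5% and lower for 24.6%. ALDH1B1 itself fell, with 21.2 ± 1.74 RPM in knockdown and 36.8 ± 2.76 RPM in control samples (SD, n = 3 each, log2 fold change -0.80, SE 0.0926, limma adjusted p = 2.37e-07). For ALK, LTK and MDK the fold changes are given as a description with no test, because this contrast was used to choose them.

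ALK mRNA was 14.5 times as abundant in the ALDH1B1 knockdown as in the control. ALK (chromosome 2, 29415640 to 30144433 on the minus strand, in the table's coordinates, which are not those of GRCh38) had 8.55, 8.84 and 9.52 RPM in knockdown replicates 4, 5 and 6, and 0.595, 0.664 and 0.595 RPM in control replicates 4, 5 and 6. All knockdown samples were far above all control samples, and the samples of each group lay close together. The means were 8.97 ± 0.497 RPM in the knockdown and 0.618 ± 0.0400 RPM in the control (SD, n = 3 each), and the log2 fold change was 3.86 (SE 0.196). These levels rest on about 180, 180 and 249 reads in knockdown replicates 4, 5 and 6 and on about 17, 14 and 14 reads in control replicates 4, 5 and 6. The control level was thus low but above the 3-read floor in each sample. With 0.5 RPM added before the log, which damps low values, the log2 fold change was 3.08.

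The log2 fold change of ALK ranked 9 among the 15496 tested genes. Of the 8 genes above it, 3 had all control samples at or under 3 reads. Among the 15474 tested genes with more than 3 reads in every control sample, ALK ranked 1. These ranks are description only, because ALK was chosen after its large difference had been seen. Its control mean of 0.618 RPM was also under the 0.688 RPM filter, so ALK passed that filter through its knockdown samples. No other listed gene overlaps the position of ALK in the table, and the same was true of LTK and MDK.

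LTK, the other receptor of the pair, did not separate the groups. LTK (chromosome 15, 41795836 to 41806086) had 1.23, 1.77 and 2.03 RPM in knockdown replicates 4, 5 and 6, and 1.68, 2.13 and 1.74 RPM in control replicates 4, 5 and 6. The groups overlapped, and both the highest and the lowest knockdown sample differed from their mean by more than the groups differed from each other. The means were 1.68 ± 0.403 RPM in the knockdown and 1.85 ± 0.247 RPM in the control (SD, n = 3 each), and the log2 fold change was -0.17 (SE 0.244). Its sign depended on knockdown replicate 4, without which the log2 fold change was 0.04. The values rest on about 26 to 53 reads in knockdown and 41 to 48 reads in control samples.

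MDK, the growth factor, was lower in the knockdown. MDK (chromosome 11, 46402306 to 46405376) had 91.0, 91.1 and 96.7 RPM in knockdown replicates 4, 5 and 6, and 126, 135 and 115 RPM in control replicates 4, 5 and 6. All knockdown samples lay below all control samples. The means were 92.9 ± 3.26 RPM in the knockdown and 125 ± 10.2 RPM in the control (SD, n = 3 each), so the knockdown had 74.3% of the control level, a log2 fold change of -0.43 (SE 0.0776). The groups did not overlap for 2 of the 3 measured genes, ALK and MDK, against 51.0% of all tested genes. The knockdown was higher for 1 of them, where the background is 26.5%, and lower for 1, where it is 24.6%. The receptor gene and the growth factor gene thus differed in opposite directions, and by very different amounts.

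**Figure D1:**
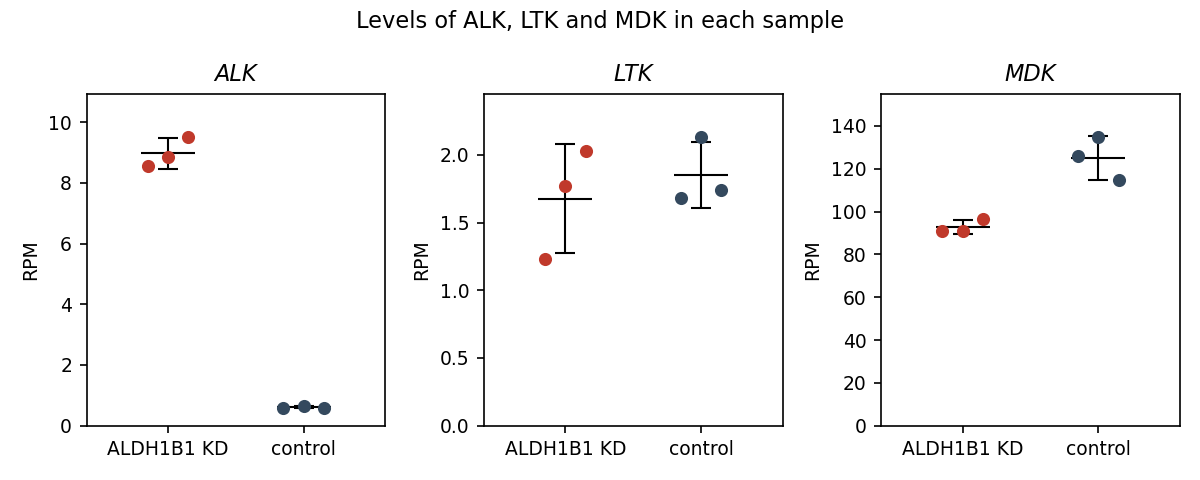
RPM of ALK, LTK and MDK (vertical axes, each starting at 0) in the 3 ALDH1B1 KD samples (red) and the 3 control samples (dark blue). Points are samples, from replicate 4 at the left to 6 at the right, and bars are the mean ± SD. ALK was between 8.55 and 9.52 RPM in the knockdown and at most 0.664 RPM in the control, LTK overlapped, and MDK was lower in the knockdown.

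The genes around ALK on chromosome 2 were also higher in the knockdown, but by far less than ALK. Of 108 listed genes whose midpoint lay within 5 Mb of that of ALK, 80 passed the filter on low values. Of these 57 (71.3%) rose and 0 fell, against 22.6% and 19.2% of all tested genes, and 23 did not pass the limma threshold. Their median log2 fold change was 0.45, with an interquartile range of 0.24 to 0.70, against 0.000668 over all tested genes. The tested neighbours ran from -0.26 to 2.19, so ALK at 3.86 lay above all of them. This is description only, because ALK was chosen after its large difference had been seen. The 28 listed neighbours under the filter are not in this range. Of the 80, 6 had a log2 fold change below 0.

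The 80 neighbours gave ALK a local level to be set against in each sample. On a log2 scale centred on the control mean, ALK was at 3.79, 3.84 and 3.95 in knockdown replicates 4, 5 and 6, and at -0.05, 0.11 and -0.05 in control replicates 4, 5 and 6. The median of the neighbours was at 0.44, 0.46 and 0.47 in the knockdown and at 0.04, 0.06 and -0.08 in the control. ALK minus its neighbours was therefore 3.35, 3.38 and 3.48 in the knockdown and -0.09, 0.05 and 0.02 in the control. The fold change of ALK exceeded the neighbours' median by 3.41 log2 units.

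**Figure D2:**
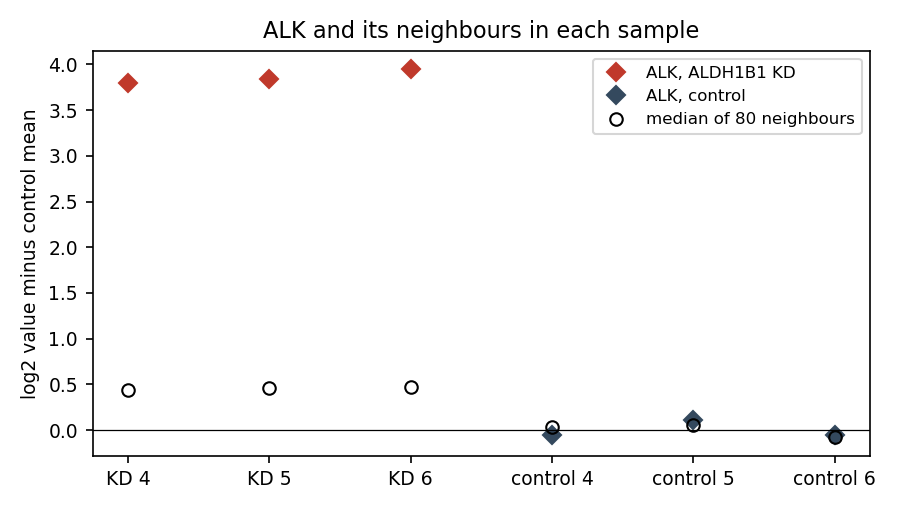
The log2 value minus the control mean (vertical axis) in each of the 6 samples, for ALK (diamonds, red in ALDH1B1 KD and dark blue in control) and for the median of its 80 tested neighbours (open circles). ALK was at 3.79 to 3.95 in the knockdown, where the neighbours' median was at 0.44 to 0.47.

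The tested genes next to ALK did not share its level of change. On the side of lower coordinates the nearest was CLIP4, of a family of microtubule-binding proteins, with 0.887 ± 0.153 RPM in the knockdown and 0.753 ± 0.141 RPM in the control, groups that overlapped (log2 fold change 0.24, limma adjusted p = 0.605). Next came FAM179A, which rose to 2.55 ± 0.558 RPM in the knockdown, against 0.752 ± 0.0651 RPM in the control (log2 fold change 1.75, SE 0.263). WDR43, a factor of ribosome assembly, rose by 0.20. On the other side YPEL5 rose by 0.58, the transcription cofactor LBH by 0.61 and LCLAT1, an acyltransferase of cardiolipin remodelling, by 0.49. ALK thus lies between genes with log2 fold changes of 0.24 and 0.58.

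PLB1, a phospholipase of the intestinal brush border 1.01 Mb from ALK, had the smallest adjusted p of the neighbours. It had 11.2, 11.3 and 12.8 RPM in knockdown replicates 4, 5 and 6, and 2.90, 2.23 and 2.63 RPM in control replicates 4, 5 and 6. No knockdown sample came near the control range. Its log2 fold change of 2.19 (SE 0.145, limma adjusted p = 1.58e-11) was the largest of the 80. The other neighbours with the smallest adjusted p also rose. They were YIPF4, a Golgi membrane protein (0.75), the secreted CGREF1 (0.92), MAPRE3, which binds growing microtubule ends (1.24), the fructose kinase KHK (1.04), FNDC4 (1.51), LBH and DPYSL5, a dihydropyrimidinase-like protein of neurons (0.98). Of these, MAPRE3, KHK and CGREF1 overlap another listed gene, and whether reads were counted by strand is not given in the sources used here.

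Larger fold changes went with lower levels. Among the 40 neighbours with a mean of at least 19.96 RPM the median log2 fold change was 0.34, 35 rose and 0 reached 1. Among the 40 with a lower mean the median was 0.65, 22 rose and 9 reached 1. On the side of lower coordinates 50 of 65 neighbours rose, and on the side of higher coordinates 7 of 15, with 0 of the 4 that lay beyond 3 Mb. With the window widened to 10 Mb, 26 of 41 rose at higher coordinates, so these 4 do not mark an end of the rises. Over a much longer stretch rises were as frequent as among all tested neighbours within 5 Mb. Of the 586 other tested genes at 0 to 130 Mb on chromosome 2, 418 rose (71.3%) and 14 fell. Their log2 fold changes had a median of 0.46. This stretch was taken with earlier results of these data known, so its share is description only. No share is given here for the rest of chromosome 2. ALK, chosen after its large difference had been seen, had the largest log2 fold change there.

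**Figure D3:**
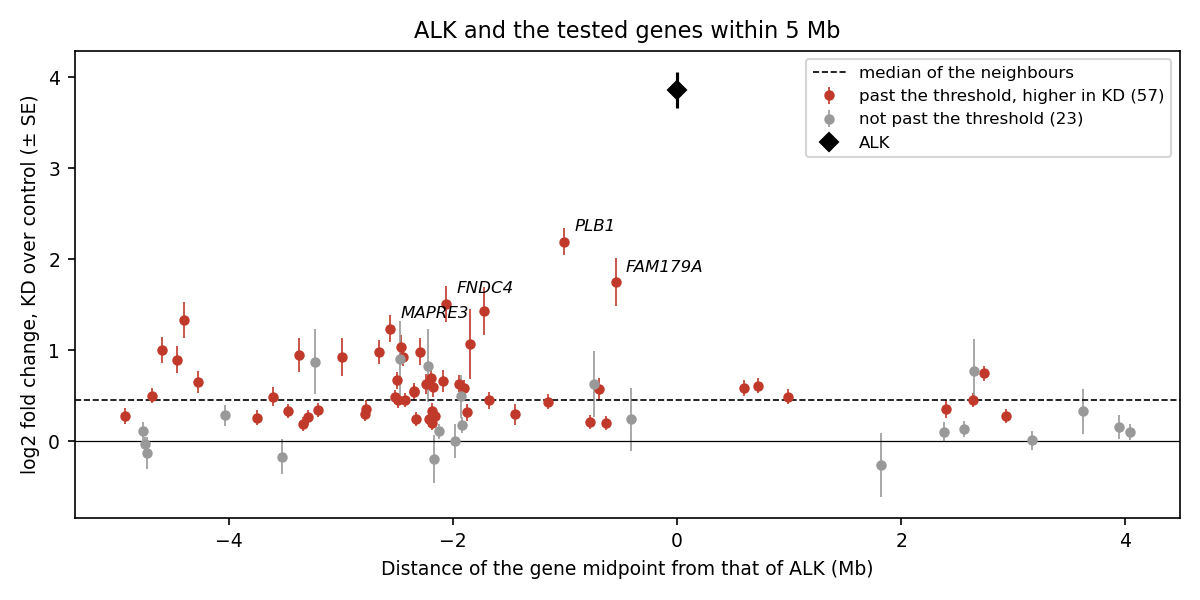
log2 fold change of knockdown over control with its SE (vertical axis) for ALK (black diamond) and its 80 tested neighbours, by distance from the midpoint of ALK in Mb (horizontal axis, lower coordinates at the left). Red points passed the limma threshold (57, all higher in the knockdown), grey points did not (23), and the dashed line is the neighbours' median of 0.45.

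Around LTK and MDK the median log2 fold change was near 0. Within 5 Mb of LTK it was -0.07, and of 106 tested genes 13 rose (12.3%) and 22 fell (20.8%). Of all tested genes 22.6% rose and 19.2% fell. The genes beside it were ITPKA, an inositol trisphosphate kinase, which fell (-0.42, limma adjusted p = 0.00072), and RPAP1, an RNA polymerase II-associated protein (-0.20, adjusted p = 0.0970). Within 5 Mb of MDK 12 of 49 rose (24.5%) and 9 fell (18.4%), near the shares of all tested genes, with a median of -0.05. At lower coordinates 9 of 21 rose and 1 fell, and at higher ones 3 of 28 rose and 8 fell. The tested genes beside it were DGKZ, a diacylglycerol kinase (-0.02, limma adjusted p = 0.888), and the unnamed locus RP11-425L10.1 (-0.16, adjusted p = 0.0797). MDK, at -0.43, was therefore lower than both of its tested neighbours and the median around it.

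Among ligands, ALKAL2, which activates ALK and LTK and is listed under its older symbol FAM150B, was close to the floor and not tested. It had 0.285, 0.246 and 0.573 RPM in knockdown replicates 4, 5 and 6, and 0.315, 0.142 and 0.255 RPM in control replicates 4, 5 and 6. The groups overlapped. ALKAL1 was not analysed here.

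The other genes of the pathway changed in both directions. Over 7 lists of ligands, receptors, signal relays, downstream genes, fusion partners and sulfated sugar synthesis, 103 of 117 genes were tested. Of these 26 rose and 40 fell, and the median was -0.10 on the log2 scale. That is 64.1% called, against 41.8% of all tested genes, but the genes of these lists also had more reads, with a median of 61.7 RPM against 16.4 RPM over all tested genes, and the part of read depth in this and in each list's share was not tested. Of the 26 that rose, 6 (SDC1, SOS1, EML4, STRN, RANBP2 and DCTN1) lie at 0 to 130 Mb on chromosome 2, where most tested genes rose.

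Receptors that bind PTN and MDK changed in both directions. Of 11 tested, 5 rose and 4 fell, or 81.8% called, where 41.8% of all tested genes were called. SDC3, a syndecan of neurons that carries heparan sulfate, rose most, with 109, 110 and 123 RPM in knockdown replicates 4, 5 and 6, against 51.6, 54.3 and 41.3 RPM in control replicates 4, 5 and 6. Every knockdown sample was above every control sample by more than the range within either group (log2 fold change 1.22, SE 0.0907, limma adjusted p = 1.13e-10). The syndecans SDC1 and SDC4 rose by 0.32 and 0.33, the glypican GPC2 by 0.62, and the endocytic receptor LRP1 by 0.89, to 42.6 ± 5.78 RPM in the knockdown, against 23.1 ± 4.25 RPM in the control (SD, n = 3 each). The 4 that fell were nucleolin, NCL, a nucleolar protein also found at the cell surface, the integrin subunits ITGA6 and ITGB1, and NOTCH2, with log2 fold changes of -0.38, -0.31, -0.21 and -0.28. PTPRZ1 and ITGAV did not pass (0.30 and -0.13, limma adjusted p = 0.0894 and 0.194). The list thus held called genes on both sides of 0, and SDC1 lies on the stretch of chromosome 2 where 71.3% of tested genes rose.

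Other receptor tyrosine kinases also changed, by little. The insulin receptor, INSR, rose by 0.47 to 26.3 ± 0.767 RPM in the knockdown, against 19.2 ± 2.87 RPM in the control, and IGF1R, the receptor of insulin-like growth factors, rose by 0.33. MET, the receptor of hepatocyte growth factor, fell (-0.29, limma adjusted p = 0.0241). These are the 3 of 5 listed receptors of this group that were tested. All 3 were called, where 41.8% of all tested genes were, and 3 genes are too few to give a firm share. Their changes are small beside the 3.86 of ALK, which was chosen after its large difference had been seen.

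Among the adaptors and signal relays 5 of 30 tested genes rose, 10 fell and 15 did not pass the threshold, around a median of -0.07 on the log2 scale. At 50.0% the share called was near the 41.8% of all tested genes. The insulin receptor substrates, docking proteins of ALK and its relatives, moved apart. IRS2 rose to 76.3 ± 4.32 RPM in the knockdown, against 47.1 ± 3.32 RPM in the control (log2 fold change 0.70, limma adjusted p = 2.49e-07), while IRS1 fell to 19.99 ± 0.899 RPM in the knockdown, against 32.5 ± 3.78 RPM in the control (-0.70, adjusted p = 2.69e-06). The phosphatases PTPN11, which relays receptor signals to RAS, and PTPN1, which dephosphorylates receptor kinases, fell, with log2 fold changes of -0.51 and -0.49.

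Genes described downstream of ALK in neuroblastoma and lymphoma showed no shared direction. Of 18 tested, 5 rose and 8 fell (72.2% called, against 41.8% of all tested genes), and their median log2 fold change was -0.08. The ERK phosphatase DUSP6, which is induced by ERK signalling, rose to 414 ± 30.9 RPM in the knockdown, against 271 ± 15.8 RPM in the control (log2 fold change 0.61, limma adjusted p = 8.14e-07), and the AP-1 subunit JUNB rose by 0.59. The neuropeptide precursor VGF fell to 24.8 ± 1.73 RPM in the knockdown, against 40.2 ± 3.31 RPM in the control (-0.70, adjusted p = 1.22e-06), and the hypoxia factor HIF1A fell (-0.53, adjusted p = 5.11e-06).

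Of the genes known as fusion partners of ALK, 6 of 23 rose and 14 fell, and their median log2 fold change was -0.27. Of all tested genes 22.6% rose and 19.2% fell. Fibronectin, FN1, fell to 58.1 ± 4.196 RPM in the knockdown, against 147 ± 4.18 RPM in the control (-1.34, limma adjusted p = 1.12e-12). The autophagy receptor SQSTM1 (-0.58), the coat protein SEC31A (-0.56) and the purine enzyme ATIC (-0.53) fell as well. The gene-level values do not tell whether any ALK transcript is fused to another gene, and no partner had a change near that of ALK.

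**Figure D4:**
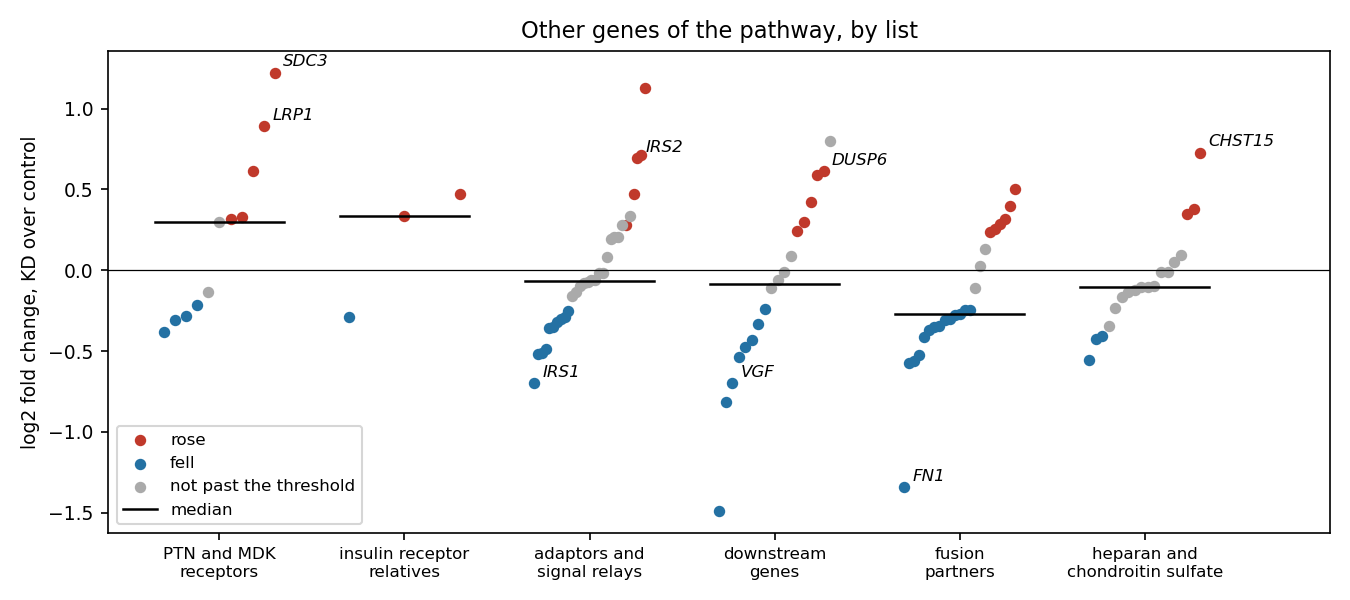
log2 fold change of knockdown over control (vertical axis) of each tested gene in 6 lists of the pathway (horizontal axis), ordered by value within a list. Red points rose, blue points fell and grey points did not pass the limma threshold. Black bars are list medians, from -0.27 for fusion partners to 0.33 for the list labelled insulin receptor relatives. That list holds INSR, IGF1R and MET, the receptor of hepatocyte growth factor.

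The 5 tested genes whose profile over the 6 samples was most like that of ALK were PRSS56, CA9, AC104135.3, EDN3 and CEMP1. Likeness was the root mean square difference between log2 values centred on each gene's mean, and it was 0.30, 0.38, 0.40, 0.44 and 0.45 in that order. PRSS56, a secreted serine protease on the same chromosome but at 233385173 to 233390423, had 22.4 ± 2.41 RPM in the knockdown and 2.19 ± 0.412 RPM in the control (SD, n = 3 each). EDN3, an endothelin, had 10.3 ± 0.539 RPM in the knockdown and 0.978 ± 0.442 RPM in the control. CA9, a carbonic anhydrase of hypoxic cells, had about 2, 3 and 1 reads in control replicates 4, 5 and 6, at or under the floor. AC104135.3 and CEMP1 had control means of 0.338 and 0.202 RPM. They and CA9 thus passed the filter on low values only through the knockdown samples. CA9, AC104135.3 and CEMP1 also each overlap another listed gene, and whether reads were counted by strand is not given in the sources used here. AC104135.3 lies at 75145275 to 75165546 on chromosome 2, on the stretch where 71.3% of tested genes rose. The 5 genes were found by this likeness, so their fold changes are no support for it.

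Several markers of the cells in which ALK is normally studied rose in the knockdown as well. In the neural crest and neuroblastoma list 7 of 13 markers were measured, and their summed level was 12.0 to 13.6 RPM in the knockdown and 7.14 to 10.2 RPM in the control. Of the 4 tested, DBH, the enzyme that makes noradrenaline, rose by 0.60 (limma adjusted p = 0.00392) and CHGB, a protein of secretory granules, by 0.89 (adjusted p = 0.0462), while ISL1 (0.67, adjusted p = 0.0927) and TH (0.41, adjusted p = 0.144) did not pass, and GATA3, CHGA and GAP43 were below the filter. In the leukocyte and lymphoma list 6 of 10 were measured, with a sum of 8.55 to 9.53 RPM in the knockdown and 4.16 to 5.46 RPM in the control. Both tested markers rose, the T cell kinase LCK by 0.87 and the T cell co-receptor chain CD8A by 1.27. The control means of CHGB and CD8A, 0.599 and 0.464 RPM, were under the 0.688 RPM filter. CHGB and CD8A thus passed that filter only through their knockdown samples, as ALK did. Of all tested genes 22.6% rose and 19.2% fell, and so few tested markers give no firm share in either list. The lymphoma marker TNFRSF8 had 0.190 to 0.344 RPM in the knockdown and 0.255 to 0.455 RPM in the control. Fibroblast markers (3 of 8 measured) summed to 5.37 to 7.03 RPM in the knockdown and 4.18 to 5.74 RPM in the control, and glial markers (2 of 5) to 0.420 to 0.760 RPM in the knockdown and 0.427 to 0.722 RPM in the control. The sums of the first and second of these lists were higher in the knockdown, as ALK was, and their part in the result was not tested. The largest part of the first sum was DBH, with 7.12 to 7.36 RPM in the knockdown and 3.53 to 5.60 RPM in the control. LCK was the largest part of the second, with 5.75 to 7.02 RPM in the knockdown and 2.63 to 4.06 RPM in the control. The sums thus do not show a rise across each list. Of the colon epithelial markers 11 of 14 were measured, with a sum of 5881 to 6200 RPM in the knockdown and 5489 to 5752 RPM in the control. Of the 8 tested, 3 rose and 1 fell, or 50.0% called, near the 41.8% of all tested genes. The adhesion proteins CDH1 and EPCAM rose by 1.98 and 0.90 and the brush border protein VIL1 by 1.90, while the intestinal transcription factor CDX2 fell (-0.76, limma adjusted p = 2.29e-07). The keratins KRT8 (0.02, limma adjusted p = 0.863) and KRT18 (0.18, adjusted p = 0.0969) did not pass. KRT20 and GPA33 were at 0.0382 to 0.285 RPM in the knockdown and 0 to 0.170 RPM in the control, and LGR5 was at 0 in each knockdown sample and 0.170 to 0.245 RPM in the control. In these bulk samples more cells with ALK and more ALK mRNA per cell cannot be told apart.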

How the data were processed

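Strand-specific RNA-seq of total RNA from 3 ALDH1B1 KD and 3 control samples of SW480 cells was used. The deposited table holds log2 values, read from their range as log2 of RPM plus an offset of 1e-04. Per the submitters' processing notes, Partek and Bowtie were used with hg38. The table places ALK 222866 bases beyond its GRCh38.p14 start, so its positions are not those of GRCh38. The sources used here state no other build for them. The sources used here do not give gene models, counting or filters. In 24549 lines there are 22258 symbols, and the 1192 symbols at several loci had identical values and were used once.

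The value of 1 read was taken from the step of low values, 78.3% to 79.9% of which lay within 0.02 reads of a whole number, with 63.5% to 65.4% of higher ones, so no count test was run. The listed genes held 65.1% to 71.1% of the depth. Genes averaging 0.688 RPM or more, which is 1 when scaled to the reads of listed genes alone, were tested with limma 3.58.1 in R 4.3.3 (lmFit, eBayes with a trend, no covariates, two-sided, Benjamini-Hochberg), checked on simulated data. Figures used matplotlib 3.10.9 under Python 3.11.15. Intervals are not given, and read numbers cover counting error only.

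The genes and lists were chosen with earlier results of these data known. Named genes were the measured members, ALDH1B1, the listed ligands and receptors, up to 4 called genes with the smallest adjusted p in other lists, the 3 nearest tested genes on each side of ALK and up to 8 called neighbours with the smallest adjusted p, the tested genes beside LTK and MDK, the 5 genes most like ALK, and abundant or near-absent markers. List members on chromosome 2, CHGB, ISL1, CDH1, EPCAM, VIL1 and CDX2 were named after their values were seen. Older symbols matched ALKAL2 and CARS1. Promoter windows came from RefSeq, where 2 of the 3 measured genes matched.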

Additional observations from a re-analysis of the deposited data

How the results depend on the processing

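The results were recomputed with other scalings, filters on low values, variance priors, an added 0.5 RPM, a replicate block and each replicate left out. MDK kept its direction and stayed within the replicate spread. The counts of genes and of pathway genes that rose or fell each stayed within 1.5 times, but which was larger over all genes did not hold: 3508 rose and 2972 fell, against 3428 and 3879 with quantile normalization, 2729 and 2823 with the stricter filter, and 3057 and 3738 without control replicate 6. With quantile normalization the log2 fold change of ALK was 3.67 and its excess over the neighbours' median 3.22, and with 0.5 RPM added they were 3.08 and 2.64, since this damps low control values. For LTK quantile normalization gave -0.40, and the cause was not tested. Leaving out single replicates gave 3.82 to 3.91 for ALK, -0.49 to -0.37 for MDK, -0.32 to 0.04 for LTK, and 47 to 56 neighbours of ALK that rose and 0 that fell. Within 2 Mb 16 neighbours rose, and within 10 Mb 93 rose and 1 fell, because other numbers of genes lie in those windows. Samples of the same number had correlations of their deviations of -0.05, -0.06 and -0.13, and 0 of the 6 samples correlated best with its own number, so the numbers do not pair them. With the number as a replicate block 3179 genes rose and 2302 fell, against 3508 and 2972 without it. With the stricter filter LTK was not tested, and PTN gave no value under any setting. At about 14 to 17 reads, the control level of ALK limits the precision of its fold change.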

Other observations

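Enzymes that build heparan and chondroitin sulfate, the sugar chains to which PTN and MDK bind, changed in both directions. Of 18 tested, 3 rose and 3 fell (33.3% called, against 41.8% of all tested genes), and their median log2 fold change was -0.10. CHST15, which sulfates chondroitin chains, rose to 32.9 ± 4.84 RPM in the knockdown, against 19.8 ± 2.16 RPM in the control (SD, n = 3 each, log2 fold change 0.73). The heparan sulfate polymerase EXT1 fell to 14.6 ± 1.56 RPM in the knockdown, against 21.5 ± 0.802 RPM in the control, a log2 fold change of -0.56. The related EXTL3 and the sulfotransferase HS6ST1 fell as well, with log2 fold changes of -0.43 and -0.41, all by limma.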
